A study of Mus musculus with 6 samples.

Results

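The mouse PYHIN genes are interferon-inducible genes that lie side by side on chromosome 1, and 5 of them were followed here in bone marrow-derived macrophages (BMDM) treated with interleukin-4 (IL-4). They were the entries of the deposited expression table whose symbol was Ifi207, Ifi204, Mndal, Ifi203 or Ifi205, 5 of 25124 genes. Another 2 names of the family were looked for, Mnda and Pyhin1, which the table holds only as older symbols of Ifi211 and Ifi209. Those entries were therefore kept among the other PYHIN genes. The series holds 6 RNA sequencing libraries from wild type C57BL/6 mice aged 8 weeks, 3 per group. M2 cells were given 10 ng/ml IL-4 together with 20 ng/ml macrophage colony-stimulating factor (M-CSF) for 4 h, and M0 cells received M-CSF alone at 20 ng/ml. All cells had first been grown from marrow for 7 days in M-CSF, and the labels name no added interferon. The labels do not say whether replicates came from separate mice or cultures, so the p-values measure the spread between these libraries, which may be technical.

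A typical PYHIN protein pairs a PYRIN domain, which binds other PYRIN domains, with a HIN domain, which binds DNA. Not every member has both domains. Members act as sensors of DNA in the cytosol or nucleus, as partners of inflammasomes and of the STING pathway, and as nuclear regulators of transcription and growth. Their transcription is switched on by type I interferon through a factor complex that contains IRF9 and binds a DNA element called the interferon-stimulated response element (ISRE). IL-4 acts through the factor STAT6.

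The 5 genes lie within 308 kb of the reverse strand of chromosome 1 (mm10, positions 173723428 to 174031755), and the 7 entries of the table in that stretch, the 5 together with Ifi211 and Ifi202b, were all PYHIN genes. Their promoters are shown because the genes moved together. RefSeq's promoter table (GRCm38.p6, the assembly of mm10) had an entry at the annotated start of 4 of the 5 genes, from 250 bases before the start through the first 50 transcribed bases. Capitals mark matches to the core of an ISRE, which was searched as GAAA, 2 bases of any kind and GAAA, or on the other strand as TTTC, 2 bases of any kind and TTTC; the 2 strands cannot match at the same bases. The Ifi207 promoter is chr1:173741760-173742059, the Mndal promoter chr1:173880138-173880437, the Ifi203 promoter chr1:173942443-173942742 and the Ifi205 promoter chr1:174031706-174032005, all on the reverse strand.
Ifi207: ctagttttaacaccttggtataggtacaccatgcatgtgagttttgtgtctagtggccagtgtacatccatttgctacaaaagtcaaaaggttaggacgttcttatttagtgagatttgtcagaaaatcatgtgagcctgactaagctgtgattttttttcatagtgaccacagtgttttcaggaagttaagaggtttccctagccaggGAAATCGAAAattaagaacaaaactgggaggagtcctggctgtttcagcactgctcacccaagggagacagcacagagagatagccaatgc
Mndal: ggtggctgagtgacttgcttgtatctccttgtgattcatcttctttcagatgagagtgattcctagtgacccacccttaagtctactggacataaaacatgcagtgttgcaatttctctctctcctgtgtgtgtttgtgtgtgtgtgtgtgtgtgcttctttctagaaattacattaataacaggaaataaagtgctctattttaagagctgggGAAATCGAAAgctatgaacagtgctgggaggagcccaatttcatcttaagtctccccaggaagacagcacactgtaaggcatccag
Ifi203: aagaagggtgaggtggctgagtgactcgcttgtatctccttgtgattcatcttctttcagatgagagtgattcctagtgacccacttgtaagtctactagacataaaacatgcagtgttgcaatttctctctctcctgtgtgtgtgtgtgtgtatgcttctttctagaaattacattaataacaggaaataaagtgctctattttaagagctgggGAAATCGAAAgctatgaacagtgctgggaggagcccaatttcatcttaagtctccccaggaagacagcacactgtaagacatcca
Ifi205: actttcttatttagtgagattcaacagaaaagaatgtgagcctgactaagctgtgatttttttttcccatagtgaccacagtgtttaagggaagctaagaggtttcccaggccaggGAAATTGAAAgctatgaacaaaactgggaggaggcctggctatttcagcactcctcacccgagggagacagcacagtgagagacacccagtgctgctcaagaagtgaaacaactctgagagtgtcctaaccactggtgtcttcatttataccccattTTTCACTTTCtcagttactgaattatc

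All 4 promoters held the ISRE letters, as did 3.44% of 32851 promoters of the same length. With the first transcribed base counted as 0, the match began at -41 in Ifi207, -36 in Mndal and -35 in Ifi203, and read GAAATCGAAA in each. In Ifi205 it began at -134 and read GAAATTGAAA, and TTTCACTTTC stood at 23 within the transcribed part. The promoters are copies of each other to different degrees, so these matches are not separate observations. Mndal and Ifi203 were 90.7% identical over the aligned window, while Ifi207 was 56.4% identical to Mndal and Ifi205 46.0% identical to Ifi207. These values compare windows placed by the annotated starts. The printed Ifi205 and Ifi207 sequences share a similar stretch around the match, which lies further from the start in Ifi205. The 46.0% therefore understates their likeness, and the matches at -134 and -41 lie in the same shared stretch. The spacing that STAT6 binds, TTC and GAA with 4 bases of any kind between them, was found in Ifi205 and in 6.95% of promoters. This motif reads the same on both strands. Among the other PYHIN genes with an entry, the ISRE letters were found in Ifi211, Ifi213 and Ifi214 and not in Aim2, Ifi209 and Ifi202b, although Aim2 and Ifi209 were also lower in M2, and the STAT6 spacing was found in Ifi211 and Ifi213. Such matches are letters in a window and say nothing on whether a factor was bound.

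All 5 genes were lower in M2 than in M0 cells, by 50.3% to 81.5% of the mean transcript level, and in each of them every M2 library lay below every M0 library. Levels are in TPM, a measure of transcript abundance scaled for transcript length and library depth. The test was limma's moderated test on log2 of TPM plus 1, over 11235 genes with at least 1 TPM in at least 3 libraries, with p-values adjusted over all of them by Benjamini-Hochberg. A gene was called when its adjusted p was under 0.05, and all 5 were called lower. Of all tested genes 45.3% were called lower and 17.7% higher, and 49.8% had every M2 library below every M0 library. The median log2 fold change was -1.33 over the 5 genes and -0.15 over all tested genes. When each library was divided by its median-ratio factor, 28.2% of tested genes were called lower and 28.8% higher, the 5 genes were all still called lower, and the medians were -1.17 over the 5 genes and 0.00 over all tested genes. In RNA from whole cultures, fewer expressing cells and less RNA per cell cannot be told apart.

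**Figure D1:**
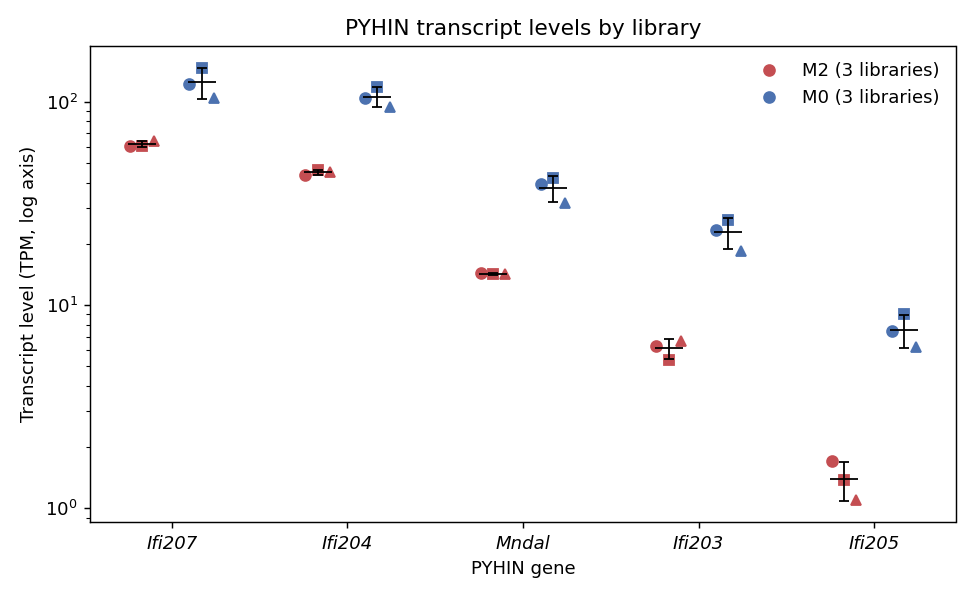
Transcript level of 5 PYHIN genes in each library, in TPM on a log axis, with M2 libraries in red and M0 libraries in blue (circle, square and triangle for replicates 1, 2 and 3); black marks give the mean and SD of 3 libraries. Every M2 point lies below every M0 point of the same gene, from Ifi207 with means of 61.9 TPM in M2 and 124 TPM in M0 to Ifi205 with 1.39 TPM in M2 and 7.54 TPM in M0.

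Ifi204 encodes p204, a relative of human IFI16 that senses DNA and signals through STING. Its levels were 43.4, 46.3 and 45.0 TPM in the M2 libraries, against 105, 118 and 94.3 TPM in the M0 libraries. The M2 values kept within a narrow band, and the lowest M0 library was still far above them. The means were 44.9 ± 1.44 TPM in M2 and 106 ± 12.1 TPM in M0 (SD, n = 3 each), a log2 fold change of -1.21 (SE 0.07, limma adjusted p = 2.56e-07). The transcript counted was NM_008329, 2284 bases in 9 exons, at positions 173747294 to 173766919.

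Ifi207 encodes a nuclear PYHIN protein that has been reported to stabilise STING. It had 60.9, 60.6 and 64.1 TPM in the M2 libraries, against 123, 147 and 104 TPM in the M0 libraries. This was the most abundant of the 5 genes in every library and the one with the smallest change. The means were 61.9 ± 1.94 TPM in M2 and 124 ± 21.8 TPM in M0, a log2 fold change of -0.98 (SE 0.12, limma adjusted p = 0.000252). Its transcript, NM_001204910, has 3473 bases in 8 exons at positions 173723428 to 173741809.

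Mndal encodes a nuclear protein reported to slow cell growth. Its levels were 14.4, 14.1 and 14.3 TPM in the M2 libraries, against 39.2, 42.3 and 31.6 TPM in the M0 libraries. The M2 libraries were closer together than for any of the other 4 genes. Their SD was 1.11% of their mean, below the 4.91% that counting error alone gives. This closeness cannot be read as a trait of the gene. The means were 14.3 ± 0.158 TPM in M2 and 37.7 ± 5.51 TPM in M0, a log2 fold change of -1.33 (SE 0.09, limma adjusted p = 7.88e-07). The transcript, NM_001170853, has 1896 bases in 10 exons at positions 173857220 to 173880187.

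Ifi203 encodes another interferon-induced nuclear protein of the family. It had 6.285, 5.37 and 6.68 TPM in the M2 libraries, against 23.5, 26.3 and 18.4 TPM in the M0 libraries. The lowest M0 library stood well above the highest M2 library. The means were 6.11 ± 0.674 TPM in M2 and 22.7 ± 3.98 TPM in M0, a log2 fold change of -1.73 (SE 0.12, limma adjusted p = 1.55e-06). The TPM are those of NM_001302651, 3478 bases in 8 exons at positions 173920401 to 173942492. The authors' deposited table of the comparison rests on another transcript of the gene, NM_001302649 of 4862 bases, and gives a log2 fold change of -1.68 for it.

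Ifi205, which has been reported to act on expression of the inflammasome adaptor gene Pycard in macrophages, was the least abundant of the 5. Its levels were 1.70, 1.37 and 1.10 TPM in the M2 libraries, against 7.46, 8.98 and 6.19 TPM in the M0 libraries. These values rest on few reads, 40, 33 and 29 in the M2 libraries, and 183, 218 and 142 in the M0 libraries. The M2 libraries varied by 21.6% of their mean (SD), where counting error alone gives 17.1%. The means were 1.39 ± 0.301 TPM in M2 and 7.54 ± 1.40 TPM in M0, a log2 fold change of -1.83 (SE 0.13, limma adjusted p = 8.87e-07). The pseudocount of 1 makes that value smaller than the change in TPM, which was 5.42-fold lower in M2; on recovered reads, with no such offset, limma-voom gave -2.39. The transcript, NM_172648, has 1604 bases in 7 exons at positions 174011998 to 174031755.

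The order of levels was Ifi207, Ifi204, Mndal, Ifi203 and Ifi205 in either group. In M2 cells no neighbours in that order overlapped between libraries. In M0 cells the ranges of Ifi207 and Ifi204 overlapped, although Ifi207 was the higher in each single library. Among these 5 genes, the fall was larger the lower the gene stood in this order. Mean TPM was 2.01-fold lower in M2 for Ifi207, 2.36-fold for Ifi204, 2.64-fold for Mndal, 3.72-fold for Ifi203 and 5.42-fold for Ifi205. The other PYHIN genes did not all follow it. Ifi211 (42.0 TPM in M0) was 3.51-fold lower in M2 and Ifi209 (21.1 TPM in M0) 2.80-fold. Aim2 (16.5 TPM in M0) was only 1.48-fold lower, while the scarce Ifi208 and Ifi213 were 32.1-fold and 13.8-fold lower.

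Ratios within a library, which cancel any difference in scaling between libraries, show how unequal the falls were. The ratio of Ifi205 to Ifi207 was 0.0280, 0.0226 and 0.0172 in the M2 libraries, against 0.0608, 0.0611 and 0.0597 in the M0 libraries. The ratio of Ifi203 to Ifi207 was 0.103, 0.0886 and 0.104 in M2, against 0.192, 0.179 and 0.178 in M0. Ifi204 kept closest to Ifi207, with ratios of 0.713, 0.764 and 0.703 in M2 and 0.855, 0.805 and 0.910 in M0. In none of these did the groups overlap, and among all other tested genes 3.91% had a ratio to Ifi207 that was lower in every M2 library. Over all 10 pairs of the 5 genes, the less abundant gene lost ground to the more abundant one without overlap between groups. The direction of these pairs restates the order of the falls given above and adds no separate observation. Ifi207 changed least, so lower ratios to it follow from that choice. The share over all pairs of tested genes was not computed. The exact two-sided permutation test gave p = 0.1 for each pair (0.1 adjusted over 10 pairs), the smallest that 3 against 3 libraries can reach, and pairs that share a gene are not independent.

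**Figure D2:**
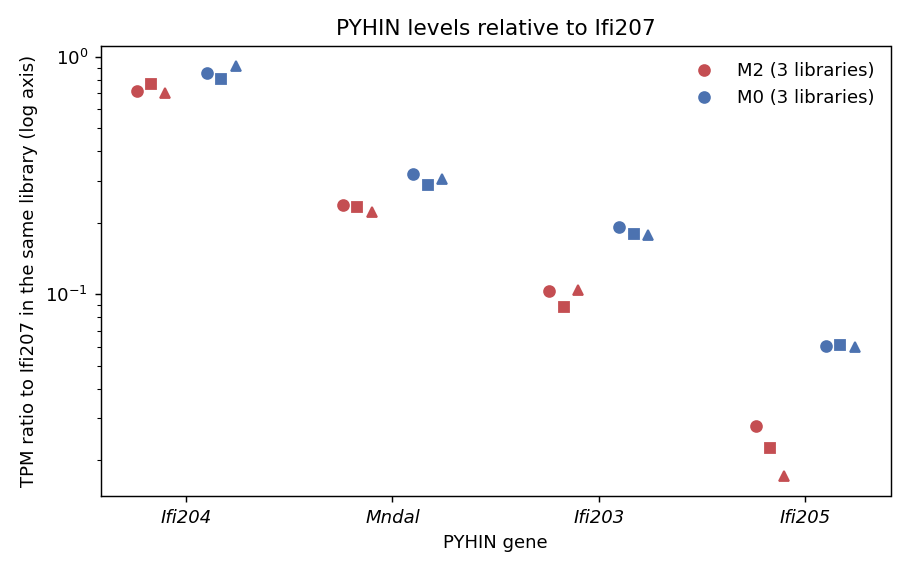
TPM of 4 PYHIN genes divided by the TPM of Ifi207 in the same library, on a log axis, for M2 (red) and M0 (blue) libraries, with 1 symbol per replicate. The M2 points lie below the M0 points for each gene, least apart for Ifi204 (0.703 to 0.764 in M2, 0.805 to 0.910 in M0) and furthest apart for Ifi205.

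Summed over the 5 genes, PYHIN transcripts made up 127, 128 and 131 TPM in the M2 libraries, against 298, 343 and 254 TPM in the M0 libraries. The means were 129 ± 2.31 TPM in M2 and 298 ± 44.4 TPM in M0, a fall of 56.9% (exact two-sided permutation p = 0.1, the smallest possible). The make-up of the sum shifted towards Ifi207, which held 48.1% ± 0.721 of it in M2 and 41.6% ± 1.11 in M0 (SD, n = 3 each). Ifi205 held 1.09% ± 0.252 in M2 and 2.52% ± 0.0919 in M0. The share of Ifi204, 34.9% ± 1.12 in M2 and 35.6% ± 1.34 in M0, overlapped between the groups.

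M0 libraries differed more among themselves than M2 libraries did, and the PYHIN genes followed a fixed order among them. M0 replicate 2 was the highest and M0 replicate 3 the lowest of the M0 libraries for 5 of 5 genes, an order found in 29.8% of all tested genes. M0 replicate 2 also stood apart over all genes: the chi-square of its recovered reads against the other M0 libraries, divided by the degrees of freedom, was 10.1 and 11.4, against 2.37 between M0 replicates 1 and 3 and 1.57 to 1.76 between M2 libraries. Without M0 replicate 2 all 5 genes were still called lower in M2, with log2 fold changes of -0.86 (Ifi207), -1.13 (Ifi204), -1.24 (Mndal), -1.62 (Ifi203) and -1.71 (Ifi205). Among the other tested PYHIN genes the same order of M0 libraries held for 4 of 5, and among 24 interferon-induced genes outside the family for 12. The part of this library difference in the PYHIN values was not tested further.

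**Figure D3:**
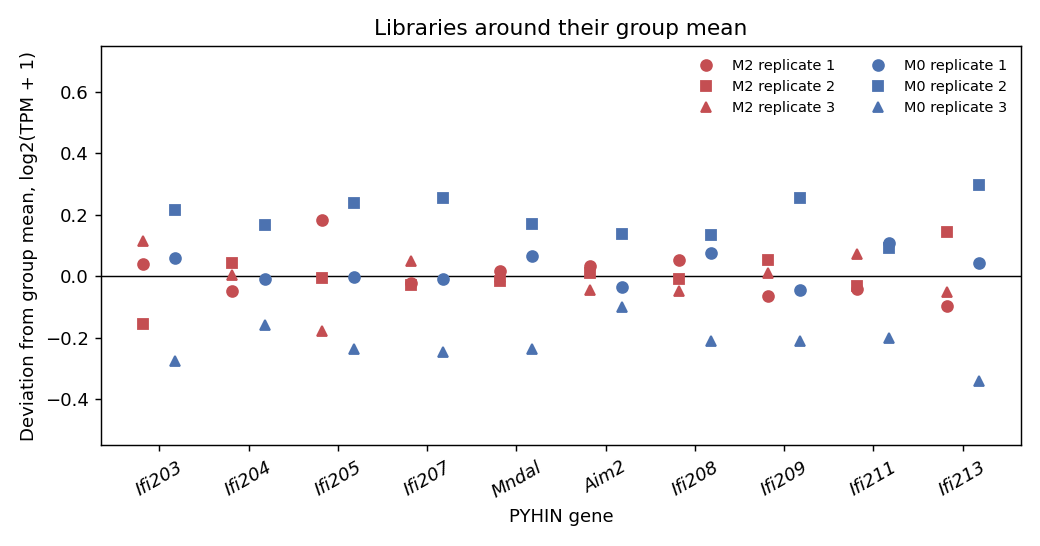
Deviation of each library from its group mean in log2(TPM + 1) for the 5 PYHIN genes and 5 other tested genes of the family, M2 in red left of M0 in blue. M0 replicate 2 (blue square) is the highest M0 library for all of them but Ifi211, and M0 replicate 3 (blue triangle) is the lowest for all 10 genes shown.

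The neighbouring PYHIN genes were lower in M2 cells as well. Of 8 other family names looked for, 7 were in the table and 5 were tested. All 5 were called lower, beside 45.3% of all tested genes. Their median log2 fold change of -1.55 was that of Ifi213, which the pseudocount of 1 makes smaller than its change in TPM. Ifi211, the entry with the older symbol Mnda, had 12.0 ± 0.588 TPM in M2 and 42.0 ± 4.96 TPM in M0 (log2 fold change -1.72). Ifi209, the entry with the older symbol Pyhin1, had 7.55 ± 0.357 TPM in M2 and 21.1 ± 3.68 TPM in M0 (log2 fold change -1.36). Aim2, which encodes the DNA sensor of the AIM2 inflammasome, changed least, with 11.2 ± 0.345 TPM in M2 and 16.5 ± 1.52 TPM in M0 (log2 fold change -0.52, SE 0.07, limma adjusted p = 0.000126). Its interval, -0.69 to -0.36, did not reach that of any of the 5 genes, the nearest being -1.26 to -0.71 for Ifi207.

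Ifi208 and Ifi213, listed also as Pydc3 and Pydc4, came close to disappearing from the M2 libraries. Ifi208 had 0.0963 ± 0.0389 TPM in M2 and 3.09 ± 0.506 TPM in M0, from 13 reads in M2 and 413 in M0. Ifi213 had 0.183 ± 0.107 TPM in M2 and 2.52 ± 0.760 TPM in M0, from 22 reads in M2 and 297 in M0. In TPM these were 32.1-fold and 13.8-fold lower in M2, more than any of the 5 genes, and the difference between them and the 5 was not tested. On log2(TPM + 1) the log2 fold changes were only -1.89 and -1.55, because of the pseudocount of 1. With limma-voom on recovered reads they were -4.87 and -3.75. Ifi214 had no read in the 3 M2 libraries, against 0.305, 0.257 and 0.109 TPM in the M0 libraries. With a limit of 3 reads over the M2 group, which covers counting error only, it was at least 4.42-fold lower in M2. Ifi202b stayed near the detection limit, at 0.191, 0.299 and 0.205 TPM in M2 and 0.183, 0.556 and 0.274 TPM in M0, and the groups overlapped.

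**Figure D4:**
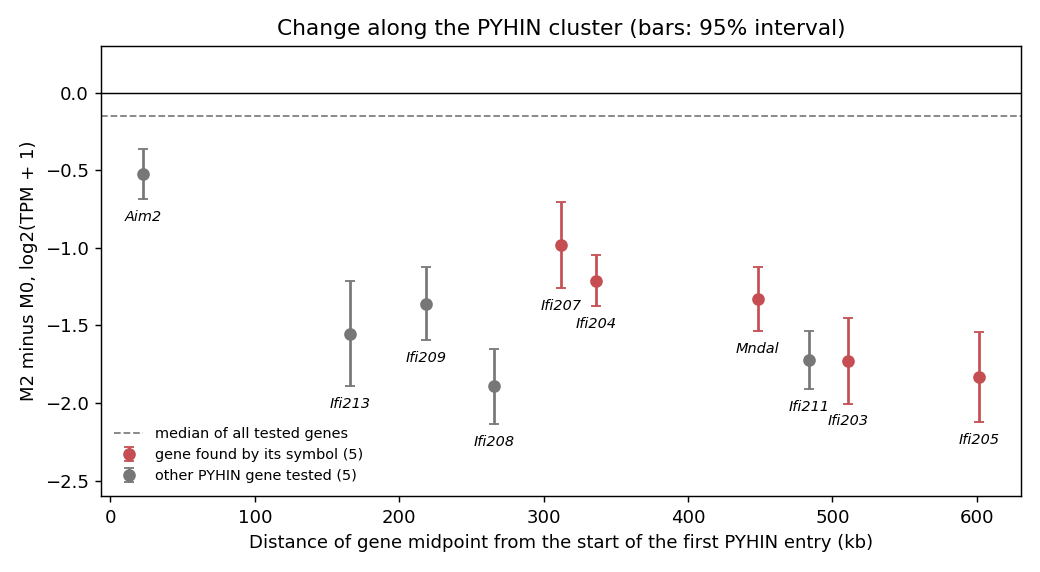
Log2 fold change (M2 minus M0, log2 of TPM + 1) with its 95% interval for the 10 tested PYHIN genes, plotted against the distance of each gene's midpoint from the start of the first entry of the cluster in kb. All 10 lie below 0 and below the dashed median of all tested genes (-0.15), with Aim2 at one end of the cluster the closest to it. The pseudocount of 1 makes the values of the scarce Ifi208, Ifi213 and Ifi205 smaller than their changes in TPM.

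Several PYHIN genes share long stretches of sequence, which bears on how reads could be told apart. In GENCODE M21 transcripts matched by RefSeq identifier, 49.6% of the 50-base windows of Ifi205 also occurred in a transcript of another gene, nearly all in Ifi211. The share was 30.2% for Ifi204, mostly in Ifi211, 27.2% for Mndal, 9.23% for Ifi203 and 7.17% for Ifi207. With windows of 100 bases it was 41.5% for Ifi205, 16.8% for Ifi204, 7.63% for Mndal, 1.18% for Ifi203 and 0.813% for Ifi207. How reads with several matching places were handled, and the read length, are not given in the sources used here, so the levels of genes with large shares are less certain. Among the other PYHIN genes, 72.9% of the 50-base windows of Ifi211 were shared, 35.1% of Ifi209, 35.2% of Ifi214 and 26.0% of Ifi208, and with 100 bases 56.9%, 17.9%, 19.3% and 8.23%, so their levels, Ifi211 above all, are uncertain in the same way as those of Ifi205, Ifi204 and Mndal. The transcript matched for Ifi214 has 2888 bases, against 1287 in the entry counted, so its shares may not hold for that entry. Aim2 and Ifi202b shared little, 0.932% and 0% of 50-base windows, and 0% of 100-base windows in both. Ifi213 had no matched transcript and was not assessed. The 12 PYHIN spans of the table do not overlap, but GENCODE draws Mndal at positions 173849126 to 173942491, across Ifi211 and Ifi203 on the same strand, so reads of such long transcripts and of those genes could not be told apart.

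Outside the family, the log2 fold changes of the PYHIN genes lay within those of other interferon-induced genes. Of 24 such genes listed and tested, 24 were called lower, beside 45.3% of all tested genes, with a median log2 fold change of -1.94. After median scaling 24 were lower, beside 28.2% of all tested genes. The list was chosen with earlier results of these data known and does not hold every interferon-induced gene. The largest falls were those of Ifit3, Ifit1, Rsad2 and Ifit2, antiviral effectors, with log2 fold changes of -4.45, -4.02, -3.86 and -3.61. The share of all tested genes with a log2 fold change as low as or lower than the gene's own was 0.685% for Ifi205, 0.846% for Ifi203, 2.06% for Mndal, 2.89% for Ifi204 and 4.92% for Ifi207. By distance between centred profiles of log2(TPM + 1) over the 6 libraries, the genes most like the PYHIN sum were Parp14 (0.105), Eif2ak2 (0.113), Irgm2 (0.126), Gnptab (0.127) and Cttnbp2nl (0.128). Ifi204 itself was 0.102 from that sum and Ifi205 0.829.

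**Figure D5:**
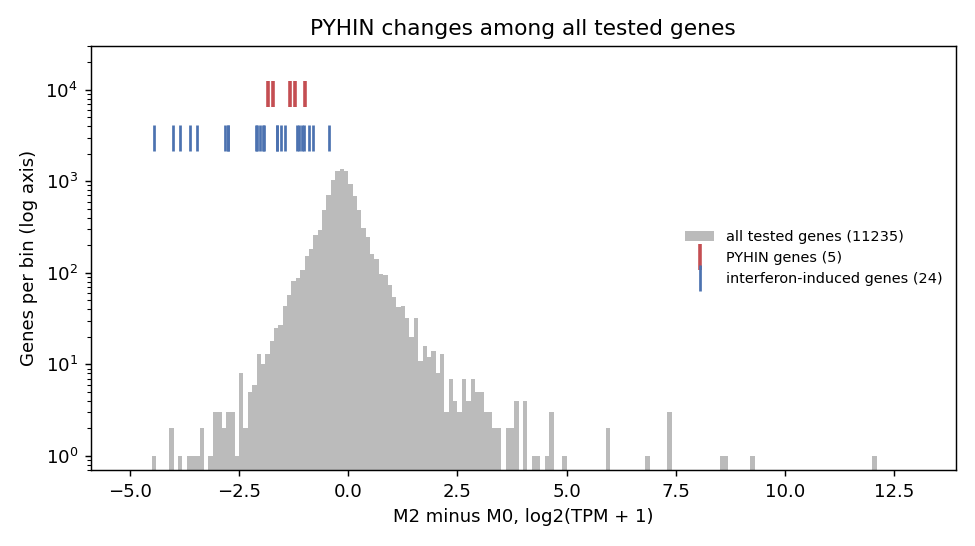
Number of tested genes per bin of log2 fold change (M2 minus M0, log2 of TPM + 1), on a log axis, with marks for the 5 PYHIN genes (red) and 24 other interferon-induced genes (blue). The PYHIN marks, from -1.83 to -0.98, lie in the lower tail of the grey distribution and inside the range of the blue marks.

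Of 13 tested genes that relay and control interferon signals, 6 were called lower, 6 higher and 1 did not pass. The share called lower was near the 45.3% of all tested genes, so that count is not a result about the list. The 6 called higher stand beside 17.7% of all tested genes. After median scaling 6 were lower and 6 higher, beside 28.2% and 28.8% of all tested genes. Whether the list differs from all tested genes was not tested. Irf9, which encodes the DNA-binding part of the complex at the ISRE, was among the lower ones, with 21.2 ± 1.87 TPM in M2 and 41.5 ± 2.10 TPM in M0. Irf7, an interferon-induced activator of interferon genes, had a log2 fold change of -1.31, and Usp18, which damps the interferon receptor, one of -0.82. Irf2, a factor that can oppose activation at such elements, rose to 58.3 ± 1.25 TPM in M2, against 43.6 ± 4.42 TPM in M0. The receptor-bound kinase genes Jak1 and Tyk2 rose by 0.28 and 0.20 on the log2 scale, and Socs1, an inhibitor of JAK kinases, by 4.61. Ifnb1, the interferon beta gene, was listed at 0 in 3 of 3 M0 libraries and reached at most 0.087 TPM in an M2 library; it is named after its values were seen.

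Of 12 AIM2 inflammasome and pyroptosis genes, 8 were called lower, 3 higher and 1 did not pass, beside 45.3% lower and 17.7% higher among all tested genes. The largest falls were those of Gm12250, an interferon-induced GTPase gene also known as Irgb10 (log2 fold change -1.41), Nlrp3, another inflammasome sensor gene (-1.40), Il18, a cytokine gene (-1.01), and Ninj1, whose product ruptures the membrane in pyroptosis (-0.84). Nlrp3 had 7.25 ± 0.482 TPM in M2 and 20.8 ± 0.466 TPM in M0. Of the 3 that rose, Irf1, a transcription factor gene, changed most, with 75.6 ± 1.63 TPM in M2 and 32.2 ± 1.19 TPM in M0 (log2 fold change 1.21). Il1b, a cytokine gene, had 1.32 ± 0.197 TPM in M2 and 0.565 ± 0.138 TPM in M0 (0.57). Pycard, the adaptor that joins AIM2 to caspase-1, changed least of the 3, with 58.2 ± 1.80 TPM in M2 and 46.8 ± 2.89 TPM in M0 (0.31). Of 14 cytosolic DNA sensing genes, 9 were called lower, 1 higher and 4 did not pass, beside the same 45.3% lower and 17.7% higher. After median scaling 5 were lower and 4 higher, near the 28.2% and 28.8% of all tested genes, so these counts depend on scaling. Cgas, which makes the messenger that activates STING, had 2.75 ± 0.270 TPM in M2 and 7.62 ± 0.538 TPM in M0. The nuclease gene Trex1 had 37.3 ± 0.741 TPM in M2 and 76.1 ± 7.53 TPM in M0, and the log2 fold changes of the kinase gene Ikbke and the helicase gene Dhx9 were -0.71 and -0.55. Samhd1, which depletes nucleotides, was the one that rose, with 128 ± 3.25 TPM in M2 and 95.8 ± 7.27 TPM in M0. Tmem173, the STING gene, named after its values were seen, had 29.7 ± 0.681 TPM in M2 and 27.7 ± 1.70 TPM in M0 and did not pass (log2 fold change 0.10, limma adjusted p = 0.164), though it did after median scaling (0.26, adjusted p = 0.00148).

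Of 9 IL-4 receptor signalling genes, 4 were called lower, 3 higher and 2 did not pass, beside 45.3% lower and 17.7% higher among all tested genes. The count of lower genes is near that share and is not a result about the list. Cish, Socs2 and Irf4 rose by 4.94, 3.75 and 3.02 on the log2 scale, and Il13ra1, Ptpn6, Stat6 and Il4ra had log2 fold changes of -1.10, -0.45, -0.42 and -0.16. The value of Il4ra did not keep its call after median scaling (0.01, adjusted p = 0.845).

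The cells carried the markers of macrophages: the 8 macrophage markers summed to 15560 to 15933 TPM in M2 libraries and 16693 to 17788 TPM in M0 libraries. Most of that was Lyz2, with a mean of 12051 TPM in M2 and 13744 TPM in M0. Csf1r had 912 TPM in M2 and 674 TPM in M0, and Adgre1 534 and 536 TPM. Of the 8 markers 3 were called lower, 3 higher and 2 did not pass, beside 45.3% lower and 17.7% higher among all tested genes. After median scaling 1 was lower and 4 higher, so these counts depend on scaling. Cd14 had a log2 fold change of -1.26. The 5 markers of IL-4 activation were all called higher in M2, beside the same 17.7%. Markers of other cell types were low: T and NK cell markers summed to 0.177 to 0.351 TPM in M2 and 0.187 to 0.586 TPM in M0, and B cell markers, nearly all from Cd79b, to 1.10 to 1.58 TPM in M2 and 1.85 to 1.98 TPM in M0. Neutrophil markers, mainly S100a8 and S100a9, summed to 25.2 to 31.9 TPM in M2 and 27.7 to 34.8 TPM in M0. Plasmacytoid dendritic cell markers, mainly Cox6a2, summed to 2.76 to 5.06 TPM in M2 and 2.60 to 3.19 TPM in M0, and conventional dendritic cell markers to 1.06 to 1.39 TPM in M2 and 0.263 to 0.514 TPM in M0. In the conventional dendritic cell list Zbtb46 had a mean of 1.06 TPM in M2 and 0.077 TPM in M0, while Xcr1 had 0.103 TPM in M2 and 0.240 TPM in M0 and Flt3 0.0407 TPM in M2 and 0.055 TPM in M0; none of them was tested. Mast cell and basophil markers did not exceed 0.047 TPM in M2 and 0.13 TPM in M0, with Mcpt8 at 0 in every library, and fibroblast markers summed to 6.51 to 6.99 TPM in M2 and 8.53 to 9.18 TPM in M0. The part of other cells in the PYHIN values was not tested.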

How the data were processed

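Polyadenylated RNA from 100 ng of total RNA was sequenced in 6 libraries, per the labels' protocols. The submitters' processing notes name bcl2fastq, STAR, HOMER 4.11.1, DESeq2 and mm10. The authors deposited TPM per library, made with HOMER from reads in exons and condensed to 1 entry per gene, per the file headers. Their other table holds log2-scale values per library. It also gives the authors' log2 fold change and p-value; its titles read M0 vs. M2, but the library values show the sign to be M2 minus M0. The PYHIN names, gene lists and tests were chosen with earlier results of these data known.

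Columns were matched to groups and replicates by the sample titles, and 3 entries shifted by commas were realigned. TPM times transcript length gave whole reads, within 0.1 read, for 99.8% to 99.9% of nonzero values. The libraries held 16986733 to 19019896 such reads in M2 and 16913185 to 18624197 in M0. Genes with at least 1 TPM in at least 3 libraries were tested with limma-trend on log2(TPM + 1), two-sided, with group as the only term and robust moderation (limma 3.58.1 under R 4.3.3). The procedure was tested on simulated data. Named genes were the PYHIN genes, up to 4 per direction of each list with the largest called change, and the 5 nearest profiles; 1 gene that this rule names is not reported here. Intervals use a 95% level. The alternatives were pseudocounts of 0.1 and 5, no filter, at least 50 recovered reads in 3 libraries, a replicate block, division by median-ratio factors, limma-voom on the reads, limma-trend on the values of the authors' other table, and each library left out. Motifs, windows and alignments used Python 3.11.15 and Biopython 1.88, figures matplotlib 3.10.9.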

Additional observations from a re-analysis of the deposited data

How the results depend on the processing

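All 5 PYHIN genes were called lower in M2 in the fit reported and under each of 14 alternatives, 70 of 70 values. The log2 fold change ranged from -1.11 to -0.79 for Ifi207, -1.29 to -1.01 for Ifi204, -1.45 to -1.10 for Mndal, -1.87 to -1.31 for Ifi203 and -2.39 to -0.97 for Ifi205, and the largest adjusted p was 0.00228, for Ifi207 without M0 replicate 1. Ifi205, with the lowest level, moved most with the pseudocount: -2.36 with 0.1 and -0.97 with 5. Deviations of M2 and M0 libraries with the same replicate number correlated at 0.00495, -0.00487 and -0.0428, which shows no sign of pairing. It cannot exclude pairing, because the M2 libraries differed little beyond counting error (chi-square per degree of freedom 1.57 to 1.76). With a replicate block all 5 genes were called, and 4963 tested genes were lower and 1953 higher, against 5088 and 1983 without it. Leaving out each library in turn gave 4457 to 5239 lower and 1743 to 2217 higher genes. The counts over all genes moved with scaling. After median scaling, with factors of 0.941 to 0.945 in M2 and 1.05 to 1.09 in M0, 3163 genes were lower and 3234 higher, and on the authors' log2-scale values 3323 were lower and 3318 higher. After median scaling the median log2 fold change of all tested genes was 0.00, a shift of about the -0.15 seen before, and that of the 5 genes -1.17. With 28.2% of tested genes lower after median scaling, the cluster's 10 tested genes were all still lower. Of the 12 inflammasome genes 6 were then lower and 4 higher, of the 14 DNA sensing genes 5 and 4, of the 13 interferon signalling genes 6 and 6, and of the 9 IL-4 receptor genes 3 and 3. Among all tested genes 28.8% were then higher. Depth limits Ifi205, Ifi208, Ifi213, Ifi214 and Ifi202b, which rest on 102, 13, 22, 0 and 19 reads in M2.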
